A study of Mus musculus with 45 samples.

Results

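The cytosolic sulfotransferases of mouse liver were examined here as 10 genes (Sult1a1, Sult1b1, Sult1d1, Sult1e1, Sult2a1, Sult2a7, Sult2a8, Sult3a1, Sult3a2 and Sult5a1) out of 25 genes named Sult, pseudogenes included, and out of 39179 genes in the count files. They were chosen on their own levels across these dose groups, because members of the family moved in opposite directions. Their levels, fold changes and calls are therefore given as a description, and no p-value is read as a test of them. Liver RNA of 45 female C57BL/6 mice had been sequenced, with 5 mice in each of 9 groups. One group received the sesame oil vehicle alone, and the others received 30, 10, 3, 1, 0.3, 0.1, 0.03 or 0.01 µg/kg of TCDD (2,3,7,8-tetrachlorodibenzo-p-dioxin) in that oil by gavage. Dosing was repeated every 4 days for 28 days, as the sample descriptions and the study's methods both give. Per the study's methods the first dose was given on postnatal day 28. The treatment text of the labels says both that gavage was daily and that it was every 4 days, and it calls the mice ovariectomized, a word that the methods lack. Which schedule holds sets the total dose behind each group's name. Whole liver was extracted, so a lower level of a transcript can mean fewer cells of the type that makes it or less RNA per cell, and these cannot be told apart.

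Cytosolic sulfotransferases move a sulfonate group from the donor PAPS (3′-phosphoadenosine 5′-phosphosulfate) onto phenols, steroids, bile acids, amines and many drugs, which makes these compounds more soluble and easier to excrete. The SULT1 enzymes act mostly on phenols, thyroid hormones, catecholamines and estrogens, the SULT2A enzymes on hydroxysteroids and bile acids, and SULT3A1 on amines. Little is known of the substrates of SULT5A1. Several family members are known to be higher in female than in male mouse liver. TCDD binds the aryl hydrocarbon receptor (AhR), which enters the nucleus, pairs with ARNT and binds dioxin response elements with the core GCGTG.

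Because the reads were 50 bases long and reads aligning to several places were not counted, the sequences of the family set which members can be measured at all. Every 50-base window of the longest coding transcript of each gene was compared with all other transcripts of the GENCODE M21 annotation (GRCm38), on both strands and with up to 2 mismatches. Of the Sult2a1 windows, 88.8% had such a match in another gene, most often in Sult2a2 with 53.96% of the windows, and 109 of its 971 windows matched no other gene. Sult3a1 shared 27.5% and Sult3a2 34.5% of its windows, in both cases with each other and with no other gene. Sult1a1 shared 11.8%, mostly with the predicted gene Gm6939, and Sult5a1 shared 5.88%, spread over 951 other genes. Sult2a7 and Sult2a8 shared 0.336% and 0.382%, and Sult1b1, Sult1d1 and Sult1e1 had no such window. Copies in the genome outside annotated transcripts were not searched.

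The closest coding windows of 3 neighbouring pairs are shown because they decide whether a read can be given to a gene, with the bases that differ between the pair in capitals. The first pair is identical over 50 bases of exon 3, at chr10:33866675-33866724 on the plus strand for Sult3a1 and chr10:33779636-33779685 on the minus strand for Sult3a2. The middle pair differs at 4 positions in exon 7, at chr7:14411762-14411811 for Sult2a8 and chr7:14465214-14465263 for Sult2a7, both on the minus strand. The last pair is identical at the start of the coding sequence, at chr7:13837307-13837356 on the minus strand for Sult2a1 and chr7:13733559-13733608 on the plus strand for Sult2a2.
Sult3a1: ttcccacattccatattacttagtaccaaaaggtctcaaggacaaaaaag
Sult3a2: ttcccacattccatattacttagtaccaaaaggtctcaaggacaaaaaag
Sult2a8: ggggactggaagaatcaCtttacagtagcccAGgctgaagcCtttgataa
Sult2a7: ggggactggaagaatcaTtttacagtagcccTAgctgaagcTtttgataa
Sult2a1: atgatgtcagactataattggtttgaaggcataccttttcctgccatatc
Sult2a2: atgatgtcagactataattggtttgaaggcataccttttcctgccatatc

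The PCR primers that the study designed for Sult2a7, aggaatgacctggcttgttg and ggtcatgagtcgtggtcctt, matched all 4 annotated Sult2a7 transcripts exactly with a product of 157 bases. The reverse primer also matched 2 Sult2a6 transcripts, where the forward primer did not.

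RefSeq promoters (GRCm38.p6, 250 bases before to 50 bases after a transcript start) were given for 8 of the 10 genes, with an entry for neither Sult2a1 nor Sult2a7. The letters GCGTG were searched on both strands and are in capitals below, as CACGC where they lie on the opposite strand. They occurred in 2 of the 10 promoters of these 8 genes, those of Sult1b1 (at 1 of its 2 starts) and Sult1d1, against 32.4% of all 32851 promoters of this length. The promoters of Sult5a1, which rose, and of Sult2a8, which had the highest CPM of those that fell, are shown beside these 2 genes and do not hold these letters in this window. Sult5a1 lies at chr8:123158231-123158530, Sult2a8 (upstream start) at chr7:14446538-14446837, Sult1b1 (downstream start) at chr5:87536173-87536472 and Sult1d1 at chr5:87568957-87569256, all on the minus strand.
Sult5a1: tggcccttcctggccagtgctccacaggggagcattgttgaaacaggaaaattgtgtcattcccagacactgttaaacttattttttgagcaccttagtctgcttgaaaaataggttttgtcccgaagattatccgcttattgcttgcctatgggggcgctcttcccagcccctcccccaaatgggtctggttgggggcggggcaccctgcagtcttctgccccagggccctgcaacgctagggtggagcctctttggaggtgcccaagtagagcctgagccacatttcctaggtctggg
Sult2a8: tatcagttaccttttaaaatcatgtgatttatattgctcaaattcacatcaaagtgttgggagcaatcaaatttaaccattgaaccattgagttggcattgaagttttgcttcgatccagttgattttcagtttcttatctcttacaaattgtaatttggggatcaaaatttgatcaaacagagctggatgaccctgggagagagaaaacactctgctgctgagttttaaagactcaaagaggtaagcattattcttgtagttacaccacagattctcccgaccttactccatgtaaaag
Sult1b1: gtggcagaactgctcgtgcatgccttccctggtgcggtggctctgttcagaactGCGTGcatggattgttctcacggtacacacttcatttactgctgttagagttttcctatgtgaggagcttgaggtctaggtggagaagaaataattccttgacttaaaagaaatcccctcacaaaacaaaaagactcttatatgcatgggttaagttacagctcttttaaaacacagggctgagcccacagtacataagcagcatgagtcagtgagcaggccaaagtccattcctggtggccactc
Sult1d1: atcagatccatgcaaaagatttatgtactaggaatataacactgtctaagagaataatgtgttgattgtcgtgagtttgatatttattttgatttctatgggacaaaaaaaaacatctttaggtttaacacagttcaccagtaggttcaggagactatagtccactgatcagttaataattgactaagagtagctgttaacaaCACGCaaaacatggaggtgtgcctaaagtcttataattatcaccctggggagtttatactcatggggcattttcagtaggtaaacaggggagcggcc

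Counted reads per liver ranged from 11767284 to 56509899, with a median of 17225047, and levels are given as TMM-normalized CPM, read counts scaled to a common library size. A gene was called at a dose when its adjusted p against vehicle (edgeR quasi-likelihood test, Benjamini-Hochberg over 17464 genes) was under 0.05, and "rose" and "fell" are used only of called genes. The 8 AhR target genes listed as a check of the dosing all rose at 30 µg/kg, among them Cyp1a1 from 7.498 to 7627 CPM. In the 0.01 µg/kg group, mouse L24 had 69.7 CPM of Cyp1a1 against 1.18 to 4.54 in the other 4 mice, and mouse L21 had 2.93 CPM of Xist against 1112 to 2844 in all other livers, while the Y-linked genes Ddx3y, Kdm5d, Uty and Eif2s3y had 0 reads in every liver. No sulfotransferase was called at 0.01 µg/kg with all mice, without L24 or without L21.

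All 10 sulfotransferases passed the filter on low counts. By edgeR, 0 of them were called at 0.01, 0.03, 0.1 and 0.3 µg/kg, where 2, 1, 1 and 4 had an unadjusted p under 0.05, and DESeq2 called only Sult5a1, at 0.3 µg/kg. At these doses 0%, 0.0573%, 0.0229% and 0.464% of all genes were called. Of all 17464 genes, 1760, 2042, 900 and 1835 had an unadjusted p under 0.05 by edgeR at these doses. The count was 2 of the 10 at 1 µg/kg, with 1.76% of all genes called. It was 4 at 3 µg/kg, with 7.54% of all genes, 6 at 10 µg/kg, with 15.9%, and 7 at 30 µg/kg, with 29.6%. DESeq2 called 2, 5, 6 and 7 at these doses, with Sult3a2 added at 3 µg/kg. Of these 7, 6 fell and 1 rose, where 14.1% of all genes fell and 15.5% rose. The median log2 fold change of the 10 at 30 µg/kg was -1.16, against 0.0189 over all genes. Since the genes were chosen on these same contrasts, nothing is read from these counts. Each comparison used the same 5 vehicle mice.

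**Figure D1:**
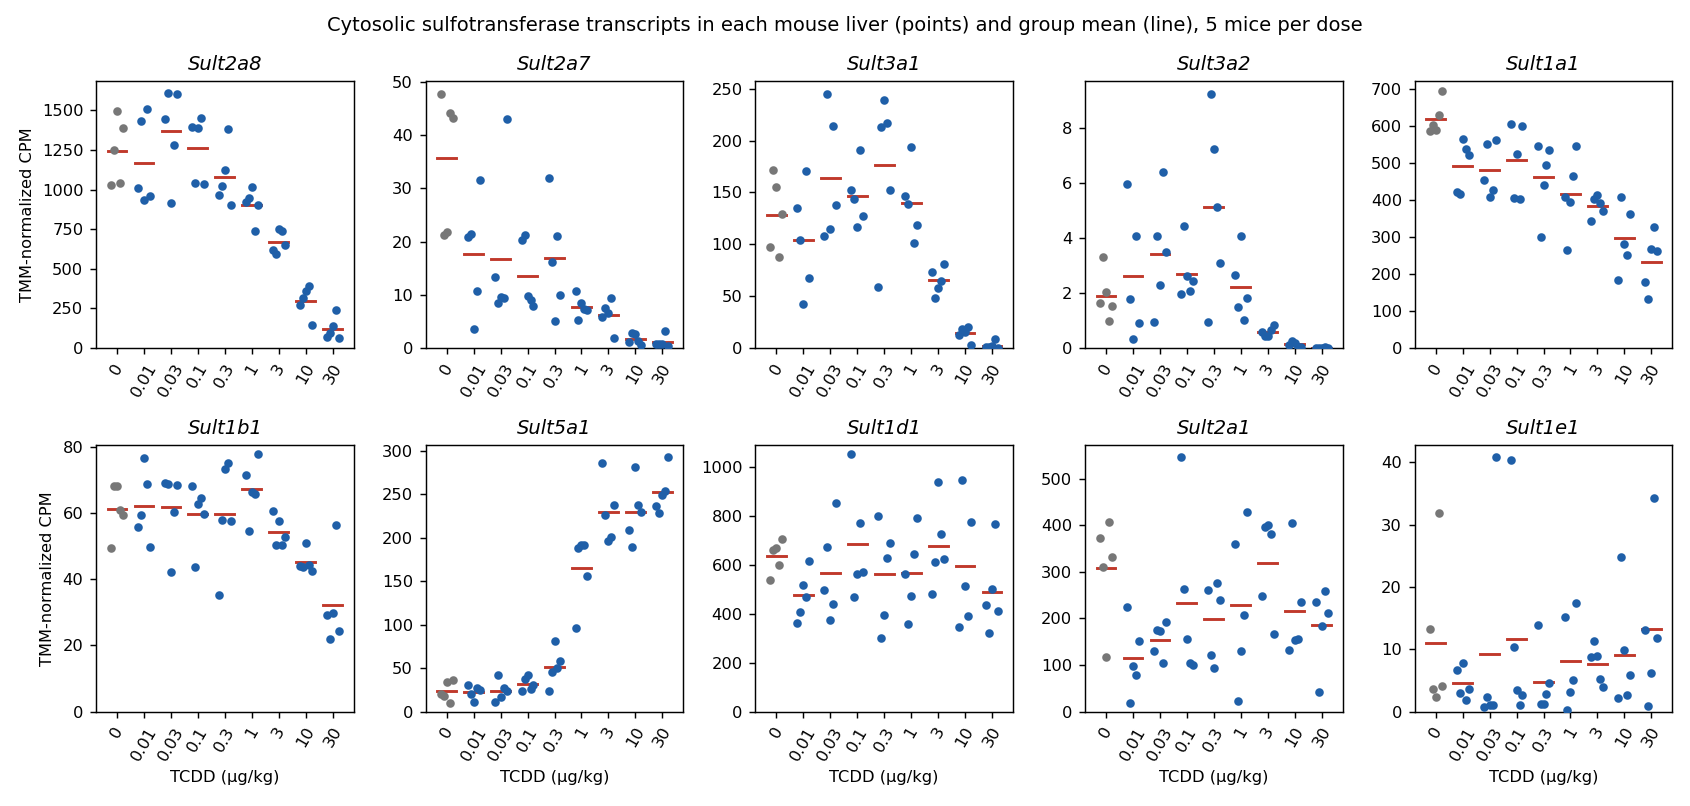
TMM-normalized CPM (vertical axis, from 0, its scale set for each gene) of the 10 sulfotransferases in every liver, by dose of TCDD (horizontal axis, µg/kg; 0 is the vehicle, in grey). Points are single mice, 5 per dose, and red lines are group means: Sult5a1 rises from a mean of 23.8 CPM in vehicle to 252 at 30 µg/kg, Sult2a8 falls from 1240 to 119, and the points of Sult1e1 scatter within every dose.

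Sult5a1 (chr8:123140192-123158315, minus strand, GRCm38 as all positions) was the only gene of the 10 that rose. In vehicle livers it had 20.5, 18.1, 33.7, 10.4 and 36.4 CPM, and at 0.3 µg/kg it had 23.3, 46.02, 81.2, 49.9 and 57.9 CPM. At 1 µg/kg it reached 96.5, 189, 192, 192 and 156 CPM, and at 30 µg/kg 237, 228, 249, 254 and 293 CPM. Every mouse at 1 µg/kg and above was over every vehicle mouse, whereas at 0.3 µg/kg 1 mouse lay within the vehicle range. The log2 fold change was 2.79 ± 0.299 (SE, n = 5 per group) at 1 µg/kg, 3.26 ± 0.304 at 3, 3.26 ± 0.304 at 10 and 3.40 ± 0.306 at 30 µg/kg, a 10.6-fold rise at the top dose. The ranges at 3, 10 and 30 µg/kg overlapped, and a further rise beyond 3 µg/kg was not tested. The dose at which its mean log2 CPM was midway between vehicle and 30 µg/kg was 0.462 µg/kg, and it stayed between 0.404 and 0.506 µg/kg when each mouse was left out in turn.

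Both SULT2A genes of the 10 that shared few windows with other genes fell. Shared windows were not counted for the Sult2a genes outside the 10. Sult2a8 (chr7:14410686-14446769, minus strand), which encodes an enzyme that sulfates bile acids, had the highest CPM of the 10 in vehicle livers, with 1031, 1250, 1496, 1039 and 1385 CPM. It had 621, 595, 750, 740 and 653 CPM at 3 µg/kg, 274, 315, 359, 391 and 147 CPM at 10 µg/kg, and 67.9, 92.7, 136, 239 and 61.5 CPM at 30 µg/kg. No mouse at 1 µg/kg or above reached the vehicle range, and the ranges at 3 and 10 µg/kg did not overlap each other. The log2 fold change was -0.89 ± 0.238 at 3 µg/kg, its lowest called dose, -2.06 ± 0.245 at 10 µg/kg, and -3.38 ± 0.259 at the top dose, where the level was 10.4-fold lower. The midpoint dose was 7.15 µg/kg, with 6.52 to 8.76 µg/kg when each mouse was left out.

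Sult2a7 (chr7:14465051-14494230, minus strand), its neighbour, fell at lower doses and further. In vehicle livers it had 47.8, 21.2, 21.8, 44.1 and 43.3 CPM, which fall into a pair and a trio. At 1 µg/kg, its lowest called dose, the values were 10.7, 5.19, 8.48, 7.32 and 7.22 CPM. At 30 µg/kg they were 0.857, 0.687, 0.778, 3.18 and 0.321 CPM, a 30.3-fold lower level with a log2 fold change of -4.92 ± 0.602. The group means were already 13.6 to 17.7 CPM at 0.01 to 0.3 µg/kg against 35.6 in vehicle, but these groups were not called, and a single mouse at 0.03 µg/kg had 43.0 CPM. At 0.1 µg/kg the 5 mice had 20.27, 21.23, 9.75, 8.94 and 7.88 CPM against a lowest vehicle mouse of 21.24, so that 2 of them lay just under the vehicle range and 3 well below it. The midpoint dose was 2.83 µg/kg, between 1.93 and 3.63 when each mouse was left out.

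**Figure D2:**
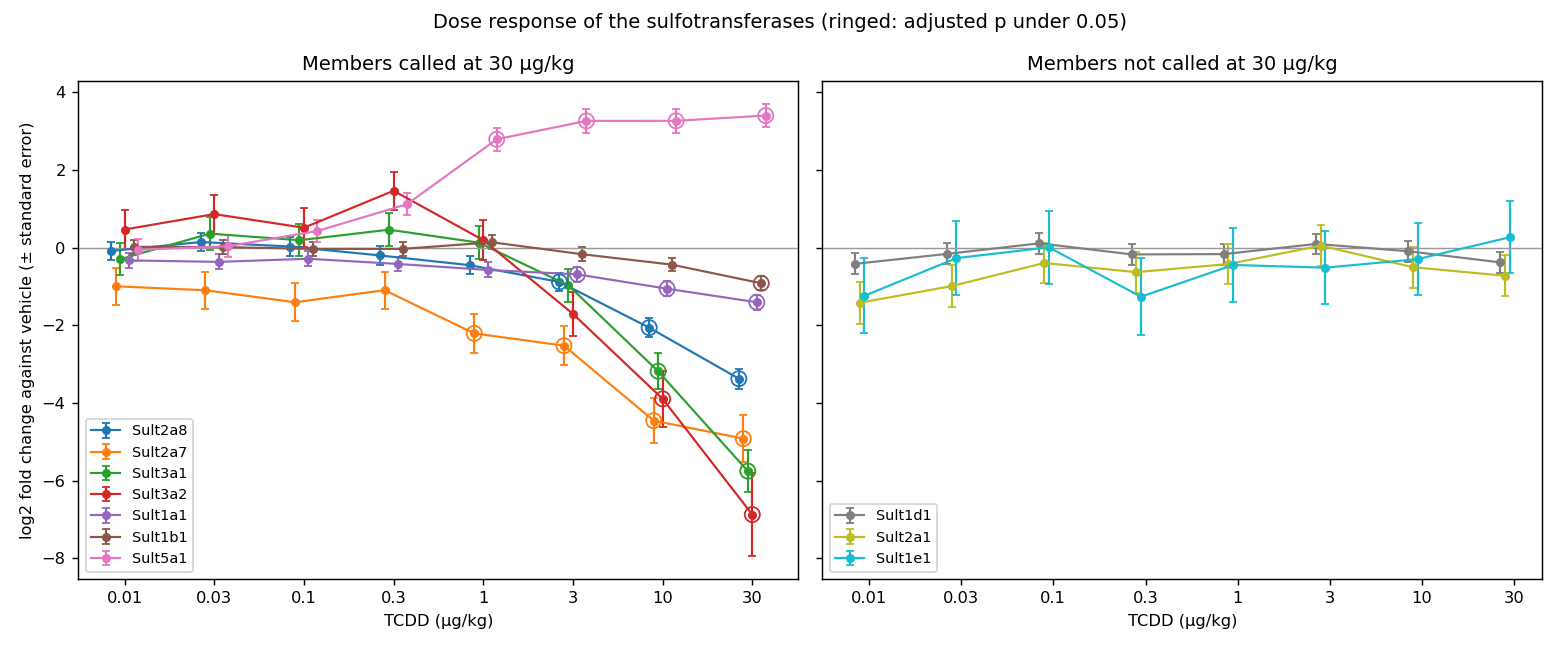
Log2 fold change of each sulfotransferase against vehicle (vertical axis) by dose of TCDD (horizontal axis, µg/kg), with bars for the standard error of the edgeR fit on 5 mice per group and rings where the adjusted p was under 0.05. The left panel has the 7 genes called at 30 µg/kg, with Sult5a1 between 3.26 and 3.40 from 3 µg/kg on and the 4 Sult2a and Sult3a genes ending between -3.38 and -6.88, and the right panel has the 3 genes not called.

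By point estimate the SULT3A pair on chromosome 10 had the largest falls at 30 µg/kg. Sult3a1 was not clearly apart from Sult2a7 (log2 fold change -4.92 ± 0.602), and Sult3a2 rested on 1 read there. Sult3a1 (chr10:33857721-33879532, plus strand) encodes an amine sulfotransferase and had 97.4, 171, 155, 87.3 and 129 CPM in vehicle livers. Its group means stayed between 104 and 176 CPM up to 1 µg/kg and overlapped the vehicle range. At 3 µg/kg it had 73.4, 48.7, 58.3, 64.6 and 81.2 CPM, at 10 µg/kg 13.02, 18.8, 15.8, 20.01 and 3.16 CPM, and at 30 µg/kg 0.676, 0.687, 1.59, 8.41 and 0.401 CPM. The mice at 3 µg/kg lay under all vehicle mice although the contrast was not called, and the ranges at 1, 3 and 10 µg/kg did not overlap one another. The log2 fold change was -3.18 ± 0.459 at 10 µg/kg, the lowest called dose, and -5.76 ± 0.538 at the top dose, where the level was 54.1-fold lower. The midpoint dose was 9.55 µg/kg (8.73 to 11.2 when each mouse was left out).

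Sult3a2 (chr10:33766424-33786704, minus strand), a paralog with few reads, had 1.63, 3.31, 2.03, 0.990 and 1.52 CPM in vehicle livers, or 154 reads over the 5 mice. At 0.3 µg/kg it had 0.941, 9.24, 7.25, 5.14 and 3.09 CPM, a mean of 5.13 that was not called, with 3 mice over the vehicle range and 1 mouse under it. It then had 0.585, 0.435, 0.421, 0.644 and 0.836 CPM at 3 µg/kg and 14 reads in all at 10 µg/kg, and was called lower at 10 and 30 µg/kg. At the top dose 4 livers had 0 reads and mouse L79 had 1 read. Over the summed reads the vehicle level was 185-fold higher than that at 30 µg/kg, with a 95% exact interval from 32.7-fold to 7340-fold that covers counting error only. Its midpoint dose was 4.62 µg/kg (4.3 to 5.0 when each mouse was left out). Log2 CPM used a prior count of 2, above the 0 or 1 read of each liver at 30 µg/kg. The prior count thus sets the endpoint at 30 µg/kg and pulls this midpoint dose down, so it is not comparable with that of Sult3a1. Reads from the identical windows of this pair, 6.15% of those of Sult3a1 and 7.72% of those of Sult3a2, cannot be assigned to either gene.

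Sult1a1 and Sult1b1 fell less. Sult1a1 (chr7:126672865-126676432, minus strand), the main phenol sulfotransferase of liver, had 587, 603, 590, 630 and 694 CPM in vehicle livers, with the smallest coefficient of variation of the 10 genes in vehicle, 7.18%. At 3 µg/kg it had 345, 402, 414, 393 and 370 CPM, at 10 µg/kg 184, 410, 280, 253 and 362 CPM, and at 30 µg/kg 178, 133, 268, 328 and 263 CPM. The log2 fold change at 30 µg/kg was -1.41 ± 0.196, a 2.65-fold lower level, and the gene was called from 3 µg/kg. All 5 mice were also under the vehicle range at 0.01, 0.03, 0.3 and 1 µg/kg, with means of 494, 481, 464 and 416 CPM, but none of these doses was called and the range at 0.1 µg/kg overlapped that of vehicle. Its midpoint dose of 3.44 µg/kg ranged from 1.59 to 4.21 when each mouse was left out.

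Sult1b1 (chr5:87513339-87538195, minus strand), which sulfates thyroid hormones and small phenols, had 49.3, 68.1, 68.04, 60.7 and 59.3 CPM in vehicle livers and fell at 30 µg/kg alone, to 29.2, 21.9, 29.9, 56.2 and 24.2 CPM. Mouse L79, with 56.2 CPM, lay within the vehicle range and the other 4 mice lay under it. The log2 fold change was -0.92 ± 0.180 at the top dose and -0.44 ± 0.178 at 10 µg/kg, where 4 of 5 mice were under the vehicle range. Its midpoint dose, 11.4 µg/kg (10.2 to 12.8), was the highest of the 7 genes, though its range overlapped that of Sult3a1 (8.73 to 11.2). That of Sult5a1 was the lowest. The midpoint takes the level at 30 µg/kg as its end, so for genes whose mean was still lower there than at 10 µg/kg it depends on the top dose given.

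The other 3 genes were called at no dose. Sult1d1 (chr5:87554645-87569027, minus strand), which acts on catecholamines and other phenols and lies between Sult1b1 and Sult1e1 on chromosome 5, had 539, 659, 669, 598 and 705 CPM in vehicle livers and 434, 322, 500, 765 and 412 CPM at 30 µg/kg. Its log2 fold changes over the 8 doses lay between -0.42 and 0.11. The SULT1 genes of this cluster thus had group means at 30 µg/kg of 32.3 CPM for Sult1b1, 486 for Sult1d1 and 13.3 for Sult1e1, against 61.1, 634 and 11.03 CPM in vehicle.

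Sult2a1 (chr7:13796246-13837409, minus strand), a hydroxysteroid sulfotransferase, had 373, 309, 117, 407 and 332 CPM in vehicle livers and 235, 41.7, 184, 258 and 212 CPM at 30 µg/kg. Over all 45 mice it ranged from 19.1 to 547 CPM, and its log2 fold change at 30 µg/kg was -0.73 ± 0.528. Since 33.2% of its windows occur unchanged in other genes and 88.8% occur there with up to 2 mismatches, its level is uncertain. How the reads of such windows were assigned was not tested.

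Sult1e1 (chr5:87575969-87591594, minus strand), the estrogen sulfotransferase, was the most variable of the 10. Vehicle livers had 13.2, 3.69, 2.28, 31.8 and 4.15 CPM, and livers at 30 µg/kg had 13.1, 0.859, 6.22, 34.2 and 11.9 CPM. At 0.03 µg/kg 4 mice had 0.786 to 2.37 CPM and the other had 40.8 CPM. Its standard deviation of log2 CPM within dose groups was 1.67, against a median of 0.238 over 12412 genes with at least 1 CPM, of which 99.9% had a lower value. The corresponding values were 0.991 for Sult2a1, 0.888 for Sult2a7, 0.865 for Sult3a2 and 0.809 for Sult3a1, down to 0.296 for Sult1b1. The standard error of the Sult1e1 log2 fold change was 0.928 to 0.985 over the 8 doses, against 0.178 to 0.180 for Sult1b1, so a difference of 2-fold or less in Sult1e1 lay within about 1 standard error.

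Levels of different genes were compared per length, as CPM per kilobase of summed exons. Reads aligning to several places were not counted while the whole length was used. This lowers the genes that share windows, most of all Sult2a1, and its rank is uncertain. In vehicle livers Sult1a1 had 412 ± 29.6 (SD, n = 5), Sult2a8 378 ± 62.9, Sult2a1 302 ± 111, Sult1d1 258 ± 26.6 and Sult3a1 111 ± 31.2 CPM per kilobase, followed by Sult2a7 with 27.9 ± 10.2, Sult1b1 with 21.97 ± 2.79, Sult1e1 with 8.88 ± 9.98, Sult5a1 with 5.39 ± 2.48 and Sult3a2 with 2.04 ± 0.938. Sult1a1 and Sult2a8, Sult2a8 and Sult2a1, Sult2a1 and Sult1d1, Sult2a7 and Sult1b1, and Sult1e1 and Sult5a1 differed by less than these spreads. At 30 µg/kg the order was Sult1d1 (198 ± 68.4), Sult2a1 (182 ± 83.6), Sult1a1 (155 ± 51.7), Sult5a1 (57.1 ± 5.65) and Sult2a8 (36.4 ± 22.2 CPM per kilobase), of which the leading 3 lay within their spreads.

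The sum over the 10 genes was 1526 ± 101 CPM per kilobase in vehicle livers, 1187 ± 172 after 3 µg/kg, 831 ± 265 after 10 µg/kg and 654 ± 220 after the top dose. Single livers of the top dose had 621, 349, 676, 970 and 654 CPM per kilobase, and vehicle livers had 1421 to 1674, with no overlap. The sum at 0.01 µg/kg, 1126 ± 98.7, did not overlap that of vehicle per exon length but did per coding length, and at 0.03, 0.1, 0.3 and 1 µg/kg the highest liver, with 1614, 2004, 1526 and 1565, lay within or above the vehicle range. The share of Sult5a1 in the sum was 0.353% ± 0.160 in vehicle and 9.56% ± 3.29 at 30 µg/kg, and that of Sult2a8 was 24.8% ± 4.48 and 5.58% ± 2.38. Sult1d1 made up 16.9% ± 1.53 in vehicle and 30.7% ± 4.44 at 30 µg/kg. Sult2a1, which loses reads in shared windows, made up 19.66% ± 7.16 and 26.65% ± 9.46, so the sum and all shares carry this limit. Per kilobase of coding sequence Sult2a8 was the leading gene in vehicle livers with 41.9% of the sum, and Sult5a1 made up 19.95% at 30 µg/kg, so the order depends on the length used.

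**Figure D3:**
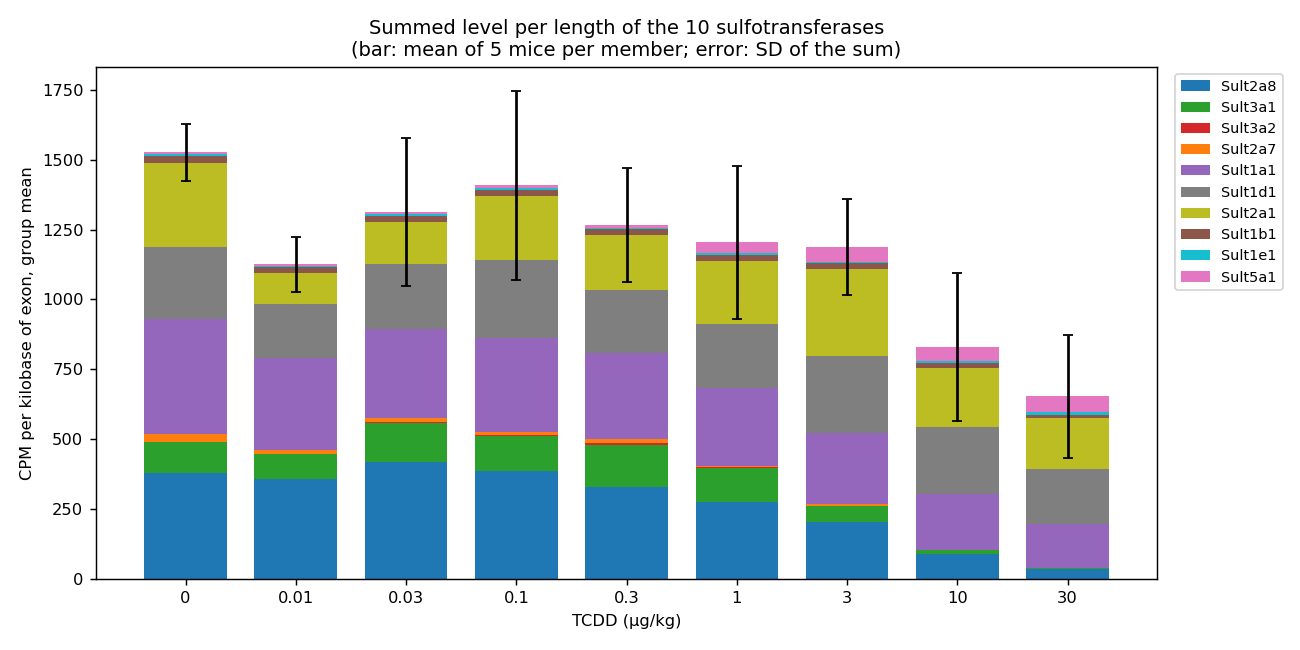
Summed level of the 10 sulfotransferases in CPM per kilobase of exon (vertical axis, from 0) by dose of TCDD (horizontal axis, µg/kg; 0 is the vehicle). Each colour is the mean of 1 gene over 5 mice and the black bars are the SD of the sum, which is 1526 in vehicle and 654 at 30 µg/kg, where Sult2a8 (blue, lowest) is thin and Sult5a1 (pink, top) is visible.

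Mice of the same dose group also differed in these genes together. Deviations of log2 CPM from the group mean were correlated over the 45 mice for all 45 pairs of genes, a measure that the choice of the genes did not use. Pearson's r ranged from -0.27 to 0.82 with a median of 0.18, and 12 pairs were over 0.5 (11 by Spearman's rho, and 9 by r without the 2 mice farthest from the median). These 2 mice were chosen on the gene of the pair that comes first in the opening list. Mice far out in the other gene alone stayed in. The points share library and depth, and r is given as a description.

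The pairs over 0.5 fell largely into 2 sets. Sult1a1, Sult1d1, Sult1e1 and Sult2a1 were correlated in all 6 of their pairs, led by Sult1a1 and Sult1d1 (r = 0.82, rho = 0.80, r without the 2 farthest mice 0.80) and by Sult1e1 and Sult2a1 (r = 0.76, rho = 0.80, 0.76). Sult2a8 and Sult3a1 (r = 0.82, rho = 0.70, 0.69), Sult3a1 and Sult3a2 (r = 0.63, rho = 0.73, 0.72) and Sult1b1 and Sult2a8 (r = 0.61, rho = 0.51, 0.50) formed the other set. This set was not correlated in all its pairs, with r = 0.279 for Sult2a8 and Sult3a2 and 0.215 for Sult1b1 and Sult3a2. Without the 30 µg/kg group, r was 0.46 for Sult1b1 and Sult2a8. Sult1b1 and Sult3a1 had r = 0.60 (rho = 0.41). It was 0.34 without the 2 mice farthest in Sult1b1 and 0.37 without the 30 µg/kg group, so it depends on which mice are counted. Between the sets r ranged from -0.25, for Sult1d1 and Sult3a2, to 0.37, for Sult1a1 and Sult1b1, and it was -0.11 for Sult2a1 and Sult2a8. Sult1e1 and Sult2a7 had r = 0.53 (rho = 0.55, 0.47). Sult3a1 and Sult3a2 share windows, as do Sult2a1 and other Sult2a genes, whereas Sult1d1, Sult1e1 and Sult1b1 share none. Sult5a1 had r over 0.5 with Sult3a2 alone (r = 0.55, rho = 0.40, 0.39).

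**Figure D4:**
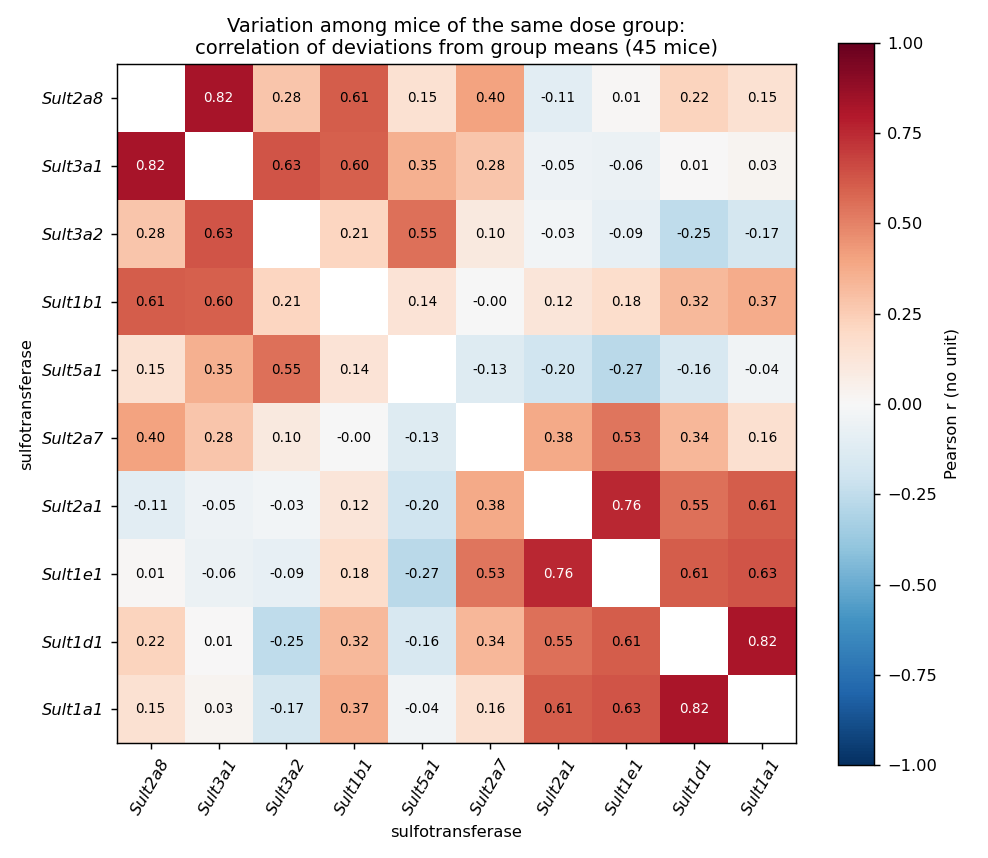
Pearson's r (colour and number, no unit) between the deviations of log2 CPM from dose group means for each pair of sulfotransferases (both axes), over 45 mice. The block of Sult2a1, Sult1e1, Sult1d1 and Sult1a1 at the lower right holds values from 0.55 to 0.82, and that of Sult2a8 and Sult3a1 at the upper left holds 0.82.

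Among the mice given 30 µg/kg, L79 had the highest level of 9 of the 10 genes, Sult1e1 with 34.2 CPM and Sult3a1 with 8.41 CPM among them, and only Sult5a1 was higher in another mouse. Among all 2467 genes that fell at this dose, L79 was the highest of the 5 mice in 55.1%, and among the 2700 that rose it was the lowest in 52.8%, against 25.0% and 23.3% over all 17464 genes. Its Cyp1a1 level, 9064 CPM, was the highest of the group (6020 to 8489 CPM in the others) and its depth was 17389631 reads. Without L79 the log2 fold change at 30 µg/kg was -7.14 for Sult3a1, -5.68 for Sult2a7, -3.80 for Sult2a8 and -1.23 for Sult1b1, and that of Sult1e1 changed sign to -0.48.

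The genes whose log2 CPM followed each sulfotransferase most closely over the 45 mice were found among all genes of at least 1 CPM, dose effects included. Sult2a8 was closest to Hao1, the glycolate oxidase, with r = 0.98 (273 CPM in vehicle and 2.30 at 30 µg/kg), then to Sult3a1 (r = 0.97) and the carboxylesterase Ces3a (r = 0.96). Sult3a1 was closest to Sult2a8, Hao1 (r = 0.97) and Acsm1 (r = 0.94), and Sult3a2 to Sult3a1 (r = 0.91), Tlr5 (0.89) and Ugt1a5 (0.89). Sult5a1 was closest to Them7 (r = 0.95), to Ahrr, the AhR repressor (r = 0.94, 0.139 CPM in vehicle and 75.4 at 30 µg/kg), and to Insl6 (r = 0.94).

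Sult1a1 followed Pipox (r = 0.91) and Chchd3 (0.91), and Sult2a7 followed Lect2 (0.90), Paics (0.89) and the fructokinase gene Khk (0.89). Sult1b1 followed Cyp2g1 (0.86) and Mgam (0.85), and Sult1d1 to Fmo5 (0.84), Ahcy (0.84) and Gm15832 (0.83). The 3 genes nearest to Sult2a1 were Sult2a5 (0.91), Sult2a2 (0.88) and Sult2a6 (0.88), with all of which it shares windows. Sult1e1 had the loosest neighbours, Dmgdh (0.71), Sult2a1 (0.71) and Ppa1 (0.69).

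Of the 11 other cytosolic sulfotransferases listed, 6 passed the filter and 2 fell at 30 µg/kg, with a list median of -0.137 against 0.0189 over all genes. Of all genes, 14.1% fell at this dose. Sult1c2 fell at 3, 10 and 30 µg/kg, from 12.9 ± 2.44 CPM (SD, n = 5) in vehicle to 2.73 ± 0.508 at 30 µg/kg (log2 fold change -2.24 ± 0.290). Sult2a3 fell at 30 µg/kg from 11.5 ± 9.81 to 1.67 ± 1.61 CPM (-2.73 ± 0.804), and without vehicle replicate 4 it was no longer called. Sult2a2, Sult2a4, Sult2a5 and Sult2a6 had log2 fold changes between -0.24 and 0.13 and were not called.

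Of the 9 tested genes of sulfate supply and PAPS synthesis, 3 were called at 30 µg/kg, all lower, by edgeR and by DESeq2, with a median of -0.0983, where 29.6% of all genes were called and 14.1% were called lower. Papss2, the main PAPS synthase of liver, fell from 558 ± 66.01 to 308 ± 61.7 CPM (log2 fold change -0.86 ± 0.179), the sulfate transporter Slc26a1 from 174 ± 36.7 to 137 ± 23.4 CPM (-0.35 ± 0.125), and Slc13a4 from 0.228 to 0.0342 CPM. Slc13a4 had at most 34 reads in any liver. In the list of cysteine oxidation 9 of 11 genes were called, all lower, with a median of -0.575. Csad, which takes cysteine sulfinic acid toward taurine and so away from sulfate, fell most (37.2 ± 11.4 to 12.04 ± 4.05 CPM), followed by the persulfide dioxygenase Ethe1 (36.98 ± 13.8 to 18.02 ± 4.23 CPM) and the sulfite oxidase Suox (166 ± 29.97 to 83.98 ± 13.6 CPM). Cth and Cbs, of transsulfuration, were not called. With library size alone in place of TMM 5 genes of sulfate supply were called, 3 of them higher, and 5 of cysteine oxidation, all lower.

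**Figure D5:**
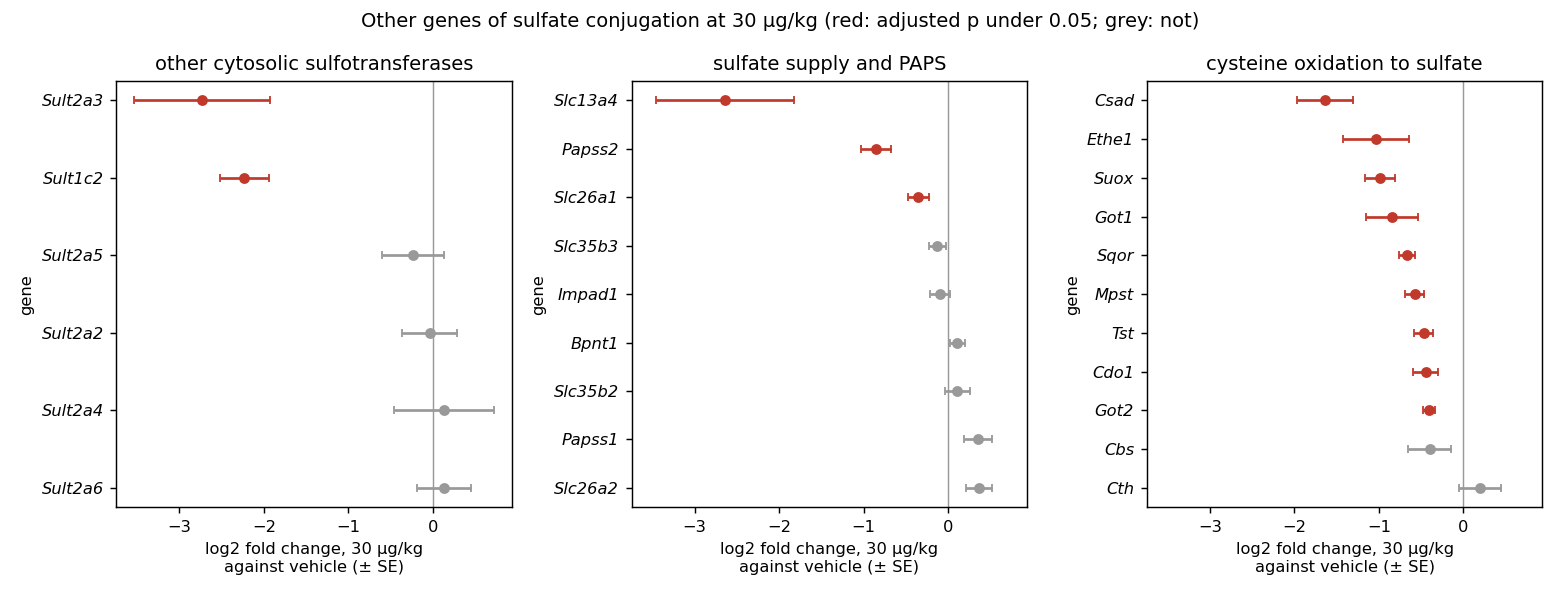
Log2 fold change at 30 µg/kg against vehicle (horizontal axis, bars for the standard error, 5 mice per group) of the other cytosolic sulfotransferases, the genes of sulfate supply and PAPS, and those of cysteine oxidation (vertical axis). Red points had an adjusted p under 0.05 and all lie left of 0, in 2 of 6, 3 of 9 and 9 of 11 genes.

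The lists of sulfatases and Golgi sulfotransferases had 4 of 12 and 8 of 26 genes called, near the 29.6% of all genes called at this dose (15.5% higher and 14.1% lower). Of 12 sulfatase genes Arsa (24.1 to 11.3 CPM) and Sulf2 (19.4 to 13.6 CPM) fell at 30 µg/kg and Sulf1 (1.02 to 2.48 CPM) and Galns (5.15 to 8.36 CPM) rose, with a median of 0.0158. Of 26 Golgi sulfotransferases, which sulfate glycans, lipids and tyrosines, 4 rose and 4 fell (median 0.0977). Gal3st1 rose from 1.15 to 4.71 CPM, Chst11 from 0.165 to 0.636 CPM and Chst14 from 1.11 to 1.91 CPM, and Hs3st3b1 fell from 136 to 64.4 CPM, Tpst1 from 19.3 to 9.44 CPM and Chst2 from 1.43 to 0.841 CPM. Chst11 had at most 19 reads in any liver.

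A list of 23 transcription factors and receptors held those known to act on sulfotransferase genes or on sex-biased liver genes. Of these 23, 4 fell and 1 rose at 30 µg/kg (median -0.224), a smaller share than the 29.6% of all genes called. Nfe2l2, the oxidative stress factor NRF2, rose from 86.4 ± 5.81 to 204 ± 25.5 CPM. Cebpa fell from 235 ± 41.3 to 126 ± 17.5 CPM, the glucocorticoid receptor Nr3c1 from 134 ± 11.96 to 92.1 ± 11.3 CPM, Nr1h3 from 106 ± 6.95 to 78.2 ± 5.26 CPM and Rora from 105 ± 11.4 to 79.5 ± 8.76 CPM. Their part in the levels of the sulfotransferases was not tested.

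Genes known to differ between the sexes were counted because several sulfotransferases are among them. Of 23 female-biased genes 12 fell and 2 rose (median -1.06), with the largest falls in Ntrk2 (7.57 to 0.885 CPM), Cyp3a16 (12.3 to 1.39 CPM) and Atp6v0d2 (16.8 to 2.09 CPM), and with a rise of Slc22a29 (9.04 to 33.4 CPM). Of 18 male-biased genes 4 fell and 4 rose (median 0.0907). Over all genes, 14.1% fell and 15.5% rose at 30 µg/kg. Slco1a1 fell from 67.1 ± 71.97 to 0.608 ± 0.551 CPM, Hsd3b5 from 0.463 to 0.0115 CPM and Elovl3 from 2.35 to 0.255 CPM, while Cspg5 rose from 0.0410 to 0.308 CPM, Cyp2d9 from 83.2 to 340 CPM and Gstp1 from 54.9 to 140 CPM. Cspg5 had at most 8 reads in any liver, so its values lie near the floor.

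Some markers of other liver cells were called at the top dose and some already at lower doses. In the 30 µg/kg group 4 of 11 Kupffer cell and macrophage markers, 6 of 11 lymphocyte and neutrophil markers, 6 of 10 stellate cell and fibroblast markers and 6 of 9 endothelial markers rose by edgeR. Of all genes, 15.5% rose and 14.1% fell at this dose. In the same order of lists, 0, 5, 3 and 6 markers rose at 10 µg/kg and 1, 1, 2 and 0 at 3 µg/kg. At these 2 doses 15.9% and 7.54% of all genes were called in either direction. No bile duct marker was called, and their summed level was 62.6 to 85.8 CPM in vehicle and 65.1 to 82.5 CPM at 30 µg/kg. The summed level of the stellate and fibroblast list was 291 to 415 CPM in vehicle livers and 552 to 813 CPM at 30 µg/kg. That of the lymphocyte and neutrophil list was 9.41 to 17.2 and 18.3 to 40.2 CPM, of the macrophage list 179 to 285 and 160 to 471 CPM, and of the endothelial list 175 to 222 and 205 to 329 CPM. Of 10 hepatocyte markers 5 fell, among them Apoa1 from 6179 to 1939 CPM, and their summed level was 118400 to 148100 CPM in vehicle and 107400 to 159400 CPM at 30 µg/kg, which overlap. Of these lists' tested genes none was at 0 reads in all vehicle livers. The part of a changed cell composition in the falls of the sulfotransferases was not tested.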

How the data were processed

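Livers of 45 mice, 1 library each, had been sequenced as single reads of 50 bases (TruSeq RNA kit). Per the labels and the study's methods, the authors trimmed reads, aligned them to GRCm38 (Ensembl genes) with TopHat 1.4.1 and counted them per gene with HTSeq 0.6.1, its strand setting not given. The deposited values are raw read counts, not normalized, and non-uniquely aligned reads were left out, which lowers near-identical paralogs. Groups came from the dose label. From these counts 17464 genes with more than 4 reads in any mouse entered 1 edgeR 4.0.16 quasi-likelihood fit (R 4.3.3) with TMM factors and a coefficient per dose, adjusted by Benjamini-Hochberg within each dose. Standard errors come from its F statistic, and log2 CPM used a prior count of 2. The fit was tested on simulated data. No replicate pair agreed within sampling noise (chi-square per degree of freedom at least 13.7). The labels state separate mice but no batch. Genes were named by symbol, positions and lengths by GENCODE M21.

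The 10 genes, the gene lists and the tests were chosen with earlier results of these data known. Named were all 10 genes, in each list the 3 largest called increases and decreases at 30 µg/kg, and per gene the 3 most correlated genes. Some genes that this rule names are not reported here. The listed names Sult1c-ps1, Bpnt2, Sqrdl, Sts and Hnf6 matched no gene. Alternatives were DESeq2 (1.42.0) tests and size factors, no TMM, other filters, 2-group fits, other adjustments, a fold change of at least 2, and leaving out mice. Protein sequences were not used here.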

Additional observations from a re-analysis of the deposited data

Results flagged for a closer look

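Each of the 90 combinations of gene and dose group was examined for a mouse whose CPM stood apart from the other 4, taken as a gap to the nearest mouse of more than 0.71 of the group's range (Dixon). Here 10 of 90 were flagged, each for a high mouse and in 6 mice in all. Chance flags about 1 in 20 groups of normally distributed values. CPM need not be so distributed, so nothing is read from the number of flags. At 30 µg/kg mouse L79 stood apart in 4 genes, with 56.2 CPM of Sult1b1 (nearest other 29.9), 3.18 CPM of Sult2a7 (nearest 0.857), 8.41 CPM of Sult3a1 (nearest 1.59) and 0.0557 CPM of Sult3a2, which is 1 read against 0 in the others. Mouse L32 at 0.03 µg/kg stood apart with 40.8 CPM of Sult1e1 (nearest 2.37) and 43.0 CPM of Sult2a7 (nearest 13.3). Sult1e1 also stood apart in mouse L36 at 0.1 µg/kg with 40.4 CPM (nearest 10.4) and in mouse L44 at 0.3 µg/kg with 13.96 CPM (nearest 4.66). Mouse L37 at 0.1 µg/kg had 4.42 CPM of Sult3a2 (nearest 2.63), and mouse L70 at 10 µg/kg had 50.9 CPM of Sult1b1 (nearest 44.3).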

How the results depend on the processing

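The 10 genes were chosen on these same contrasts, so nothing is read from how often their calls recur. The counts of 6 genes that fell and 1 that rose at 30 µg/kg were the same under every alternative run, including each mouse of the vehicle and 30 µg/kg groups left out in turn, except that 5 fell with a fold change of at least 2 also required, since Sult1b1 changed less. Under that setting 1999 of all genes were called at 30 µg/kg in place of 5167, the sulfotransferases called at 3 µg/kg were 2 in place of 4, and the called genes were 1 in place of 3 for sulfate supply and PAPS, 2 in place of 9 for cysteine oxidation, 2 in place of 4 for sulfatases, 4 in place of 8 for Golgi sulfotransferases and 1 in place of 5 for regulators; this setting removes calls by construction. With library size alone, where the median log2 fold change over all genes at 30 µg/kg was 0.232 (0.019 with TMM) and 80.3% of called genes were higher (52.3% with TMM), 5 genes of sulfate supply and PAPS were called, 3 of them higher and 2 lower, and 5 of cysteine oxidation, all lower; the shift moves every gene upward. With mice left out in turn, counts ranged over 6 to 6 lower and 1 to 1 higher at 30 µg/kg, 6 to 6 at 10 µg/kg and 4 to 5 at 3 µg/kg, and for the lists at 30 µg/kg over 1 to 2 (other cytosolic sulfotransferases, 1 without vehicle replicate 4), 2 to 4 (sulfate supply), 6 to 9 (cysteine oxidation, 6 without 30 µg/kg replicate 2), 3 to 4 (sulfatases), 6 to 8 (Golgi), 4 to 6 (regulators), 12 to 14 (female-biased) and 7 to 9 (male-biased). The log2 fold change of Sult1e1 at 30 µg/kg was 0.27 and ranged from -0.48 without replicate 4 (mouse L79) to 1.197 without vehicle replicate 4. Leaving out mouse L21 and the ranges of the midpoint doses were chosen after seeing the data. The replicate numbers are accession order, so mice were not paired. The depth limits Sult3a2 at 30 µg/kg, where 1 read was counted in 5 livers.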
